A study of Mus musculus with 8 samples.

Results

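Copying the genome is the defining event of S phase, and the genes that encode its machinery are described here in innate lymphoid cells of the mouse thymus. They were the rows of the deposited count table whose symbols name a subunit of the origin recognition complex (Orc), the MCM helicase and its paralogs, GINS, replication factor C (Rfc), replication protein A (Rpa), primase or the replicative polymerases alpha, delta and epsilon, together with Pcna, Tyms, Rrm1, Rrm2, Cdc6, Cdt1, Ung, Dut, Fen1, Tipin, Uhrf1, Chaf1b, Cdc45 and Slbp. This gave 50 of the 10913 genes in the table. The polymerase epsilon gene Pole, whose symbol has no number, was not among them and is in the list of elongation factors below. Genes entered by name and not by a measured value, but the choice was made with earlier results of these data known. Group 2 innate lymphoid cells (ILC2), lymphocytes that reside in tissue and release type 2 cytokines, had been sorted from thymi of young, untreated males after digestion with Liberase TM and DNase. 4 libraries came from Il25 KO mice and 4 from WT mice of the same age (Il25 WT in the labels). Both groups consisted of sorted ILC2 from males, and the labels name no other allele or agent. The labels give no exact age and do not say whether the KO acts in every tissue, and they number the replicates without saying that each is a separate animal, so p-values measure only the spread between these samples. The comparison asks how transcripts of thymic ILC2 differ when interleukin 25, a cytokine that acts on ILC2, is missing.

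Replication starts where the origin recognition complex sits on DNA and, with Cdc6 and Cdt1, loads the ring-shaped MCM helicase. Cdc45 and GINS join the loaded ring and turn it into the active helicase, primase with polymerase alpha lays down primers, and polymerases delta and epsilon copy the strands while held to DNA by the sliding clamp PCNA, which the Rfc complex loads. Many of these genes are transcribed as cells pass from G1 to S phase, through factors of the E2F family. Lymphocyte precursors in the thymus divide often, so this machinery is a usual feature of thymic samples.

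The libraries held 1915365 to 3250718 unique molecular identifiers (UMIs), each of which marks 1 captured 3′ transcript end. Because 1 end is counted per molecule, levels of different genes need no correction for length. They still depend on the annotation, on strand handling and on reads shared with other genes, which are uncertain here. Levels are given in CPM, UMI counts scaled to a common library total with TMM factors and written per 1000000 UMIs. Of 14 ILC2 markers 9 were in the table. Gata3 lay at 49.0 to 82.3 CPM and Il17rb at 147 to 192 CPM over the 8 libraries, while Il13 and Icos were near 0, at 0.790 to 9.21 and 0 to 2.93 CPM. The immature thymocyte gene Dntt stood at 1835 to 2552 CPM, above every ILC2 marker measured, and Cd3d at 121 to 318 CPM. WT replicate 1 stood apart in T cell coreceptor transcripts, with 357 CPM of Cd8b1 where the highest of the other libraries held 65.2 CPM. In such bulk samples fewer cells in S phase and less RNA per cell cannot be told apart.

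All 50 genes were detected in all 8 libraries, and their transcripts together made up 0.633% to 0.794% of all UMIs. Detection was common, since 10787 to 10866 of the 10913 genes in the table had a count in a given library. Orc3 and Pold4 were not in the table. Pcna, the sliding clamp, had the highest level at 693 CPM averaged over the libraries, followed by the helicase subunits Mcm7, Mcm6 and Mcm5 at 660.2, 500.3 and 389.7 CPM. Pcna and Mcm7 did not separate, since Pcna was the higher of the pair in only 3 of 8 libraries, whereas Mcm7 exceeded Mcm6 and Mcm6 exceeded Mcm5 in 8 of 8. The MCM subunits 2 to 7 alone held 30.1% of the summed level. In all, 28 genes lay at 100 CPM or more and 7 below 20 CPM, and the 7 were Slbp, Cdc6, Dut, Orc5, Mcm9, Orc4 and Tyms. Further down, most neighbours in the order of levels changed places between libraries.

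**Figure D1:**
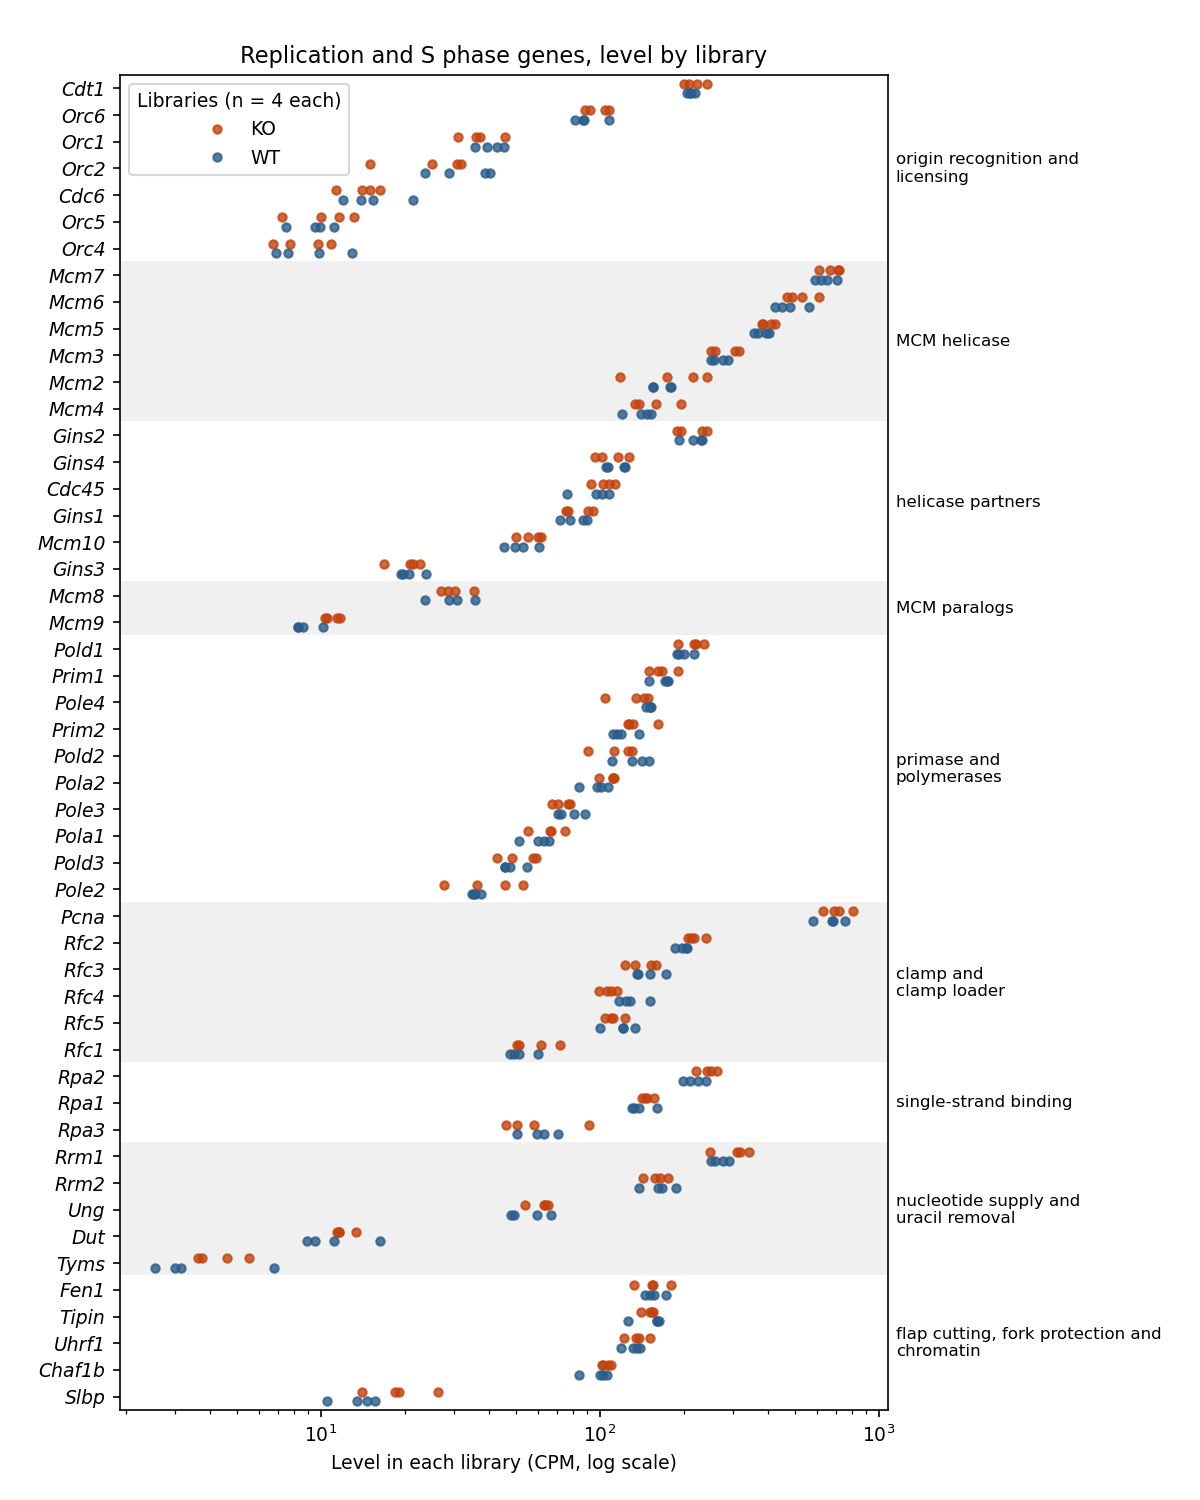
Level of each of the 50 replication and S phase genes in every library, in CPM on a log axis, with KO libraries in orange above WT libraries in blue (4 points each) and genes grouped by role. Orange and blue points overlap in nearly every gene, with Pcna and Mcm7 at the top, averaging 693 and 660.2 CPM, and Tyms between 2.54 and 6.79 CPM at the bottom.

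A sequence feature that the choice of genes did not use, a short word bound by E2F factors, was more frequent in their promoters than in those of the count table at large. Promoters from RefSeq (GRCm38.p6, 250 bases before to 50 after the transcript start) were matched for 43 of the 50 genes, and Gins1, Gins2, Gins4, Mcm4, Prim2, Rfc2 and Tipin were not matched. The E2F words TTTCCCGC, TTTCGCGC, TTTGCCGC and TTTGGCGC were searched on both strands. At least 1 word was found for 16 of the 43 genes, or 37.2%, against 5.10% of the 8766 genes of the count table with a promoter. Counted per promoter, the words were in 33.3% of the 51 promoters of these genes, in 4.24% of the 11135 promoters of genes in the count table and in 2.26% of all 32851 promoters of the same length. The CCAAT box, read as CCAAT on either strand, was found for 62.8% of the 43 genes and 43.6% of genes in the table. Among the MCM subunits 2 to 7, 4 of the 5 genes with a promoter held an E2F word (Mcm3, Mcm5, Mcm6 and Mcm7), and among primase and polymerase genes 5 of 9 did. None of the 3 Rpa genes and none of the 5 genes of nucleotide supply and uracil removal held one in this window. A list of G1 to S regulators had nearly the same share as the replication genes, with an E2F word in 10 of 27 genes (37.0%). In a list of G2 and M phase genes 1 of 28 held an E2F word, while 22 of 28 held CCAAT. These are matches of letters and not measured sites, and 1 E2F match overlapped a CCAAT match.

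**Figure D2:**
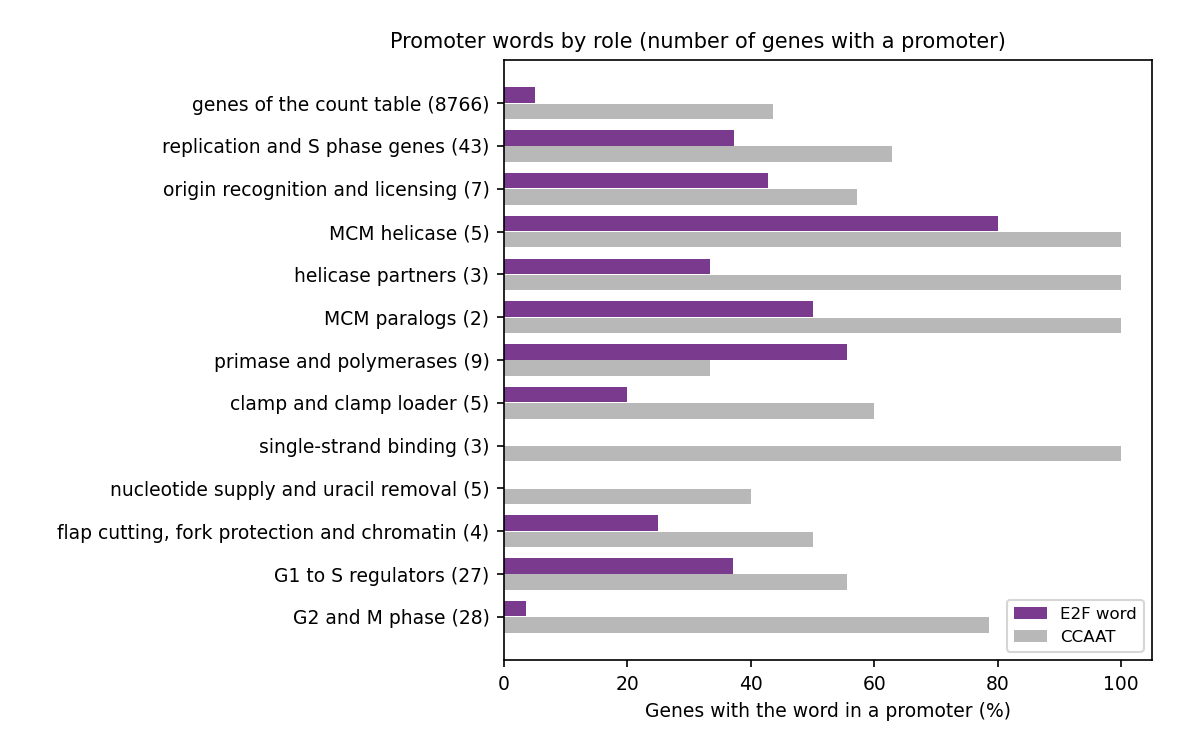
Share of genes with an E2F word (purple) or CCAAT (grey) in a RefSeq promoter of 300 bases, in percent, for the count table, the replication and S phase genes as a whole, each role among them and lists of G1 to S regulators and of G2 and M phase genes, with the number of genes that have a promoter in brackets. The E2F word reached 80% of the MCM helicase genes against 5.10% of the table, and role groups hold only 2 to 9 genes each.

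The 250 bases before the RefSeq start are shown for Mcm6 and Mcm5, whose helicase subunits were among the most abundant of these transcripts, and for Pola1, the catalytic subunit of polymerase alpha, with E2F words in capitals. They are read 5′ to 3′ on the strand of the gene, at chr1:128359706-128359955 (minus strand), chr8:75109259-75109508 (plus strand) and chrX:93632156-93632405 (minus strand) in GRCm38.p6.
Mcm6: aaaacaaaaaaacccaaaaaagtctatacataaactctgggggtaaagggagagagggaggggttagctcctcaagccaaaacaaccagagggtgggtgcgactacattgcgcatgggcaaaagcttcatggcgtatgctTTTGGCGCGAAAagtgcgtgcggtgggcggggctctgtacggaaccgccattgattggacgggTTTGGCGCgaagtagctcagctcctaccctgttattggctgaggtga
Mcm5: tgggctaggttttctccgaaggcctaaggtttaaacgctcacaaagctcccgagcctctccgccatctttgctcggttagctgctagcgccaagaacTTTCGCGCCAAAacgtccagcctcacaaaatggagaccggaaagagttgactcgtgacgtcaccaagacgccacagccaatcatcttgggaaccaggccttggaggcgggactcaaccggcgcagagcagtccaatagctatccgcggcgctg
Pola1: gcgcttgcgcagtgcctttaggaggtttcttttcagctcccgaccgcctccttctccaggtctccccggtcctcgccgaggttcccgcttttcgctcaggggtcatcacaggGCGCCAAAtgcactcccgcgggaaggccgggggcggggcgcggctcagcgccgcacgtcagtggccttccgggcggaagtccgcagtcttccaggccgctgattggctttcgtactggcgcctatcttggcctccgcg
In Mcm6 the words began 110, 106 and 47 bases upstream of the start, and the first pair overlaps on opposite strands to give 1 run of capitals. Mcm5 held a similar overlapping pair 153 and 149 bases upstream, and the Pola1 word began 138 bases upstream. For the 16 tested genes with an E2F word the median level was 138 CPM and the median log2 fold change between KO and WT 0.066, and for the 26 without one they were 100.7 CPM and 0.087.

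No gene of the replication machinery differed between KO and WT past the threshold of the test. Of the 50 genes, 49 had enough counts to be tested, with Tyms left out, and edgeR's quasi-likelihood test called 0 of them at an adjusted p under 0.05. The background was 0.177% of the 9016 tested genes called higher in KO and 0.0333% called lower. At an unadjusted p under 0.05 lay 2 of the 49, Slbp on the higher side and Rfc4 on the lower side, where 5.12% of all tested genes lay on the higher and 5.71% on the lower side. DESeq2 and limma-voom also called 0 of the 49, with 2 at an unadjusted p under 0.05 by each. The authors' deposited table gave a lowest adjusted p of 0.599 among the 50 genes, for Rfc4.

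The differences were also bounded. The log2 fold changes, KO minus WT, ranged from -0.39 for Orc2 to 0.54 for Slbp, with a median of 0.074, against a median of -0.0022 over all tested genes. Of the 49, 32 lay above 0, where 49.5% of all tested genes did. The genes were measured in the same libraries, so their signs are not independent. Across the other settings tried, which tested 49 or 50 of the genes, the number above 0 was 31 to 37. With library size alone it was 36, and there the median over all tested genes was 0.027. The 95% interval of the difference lay wholly within 1.5-fold in either direction for 43 of the 49 genes, and within 2-fold for 49 of 49. Over all tested genes these shares were 61.5% and 92.3%, at a median level of 30.3 CPM where these 49 genes had 115 CPM. The genes whose interval reached past 1.5-fold were Orc2, Cdc6, Orc5, Orc4, Mcm9 and Slbp, all with mean levels under 30 CPM. An absolute log2 fold change above 0.5 was reached by 1 of the 49, Slbp, and by 5.75% of all tested genes.

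**Figure D3:**
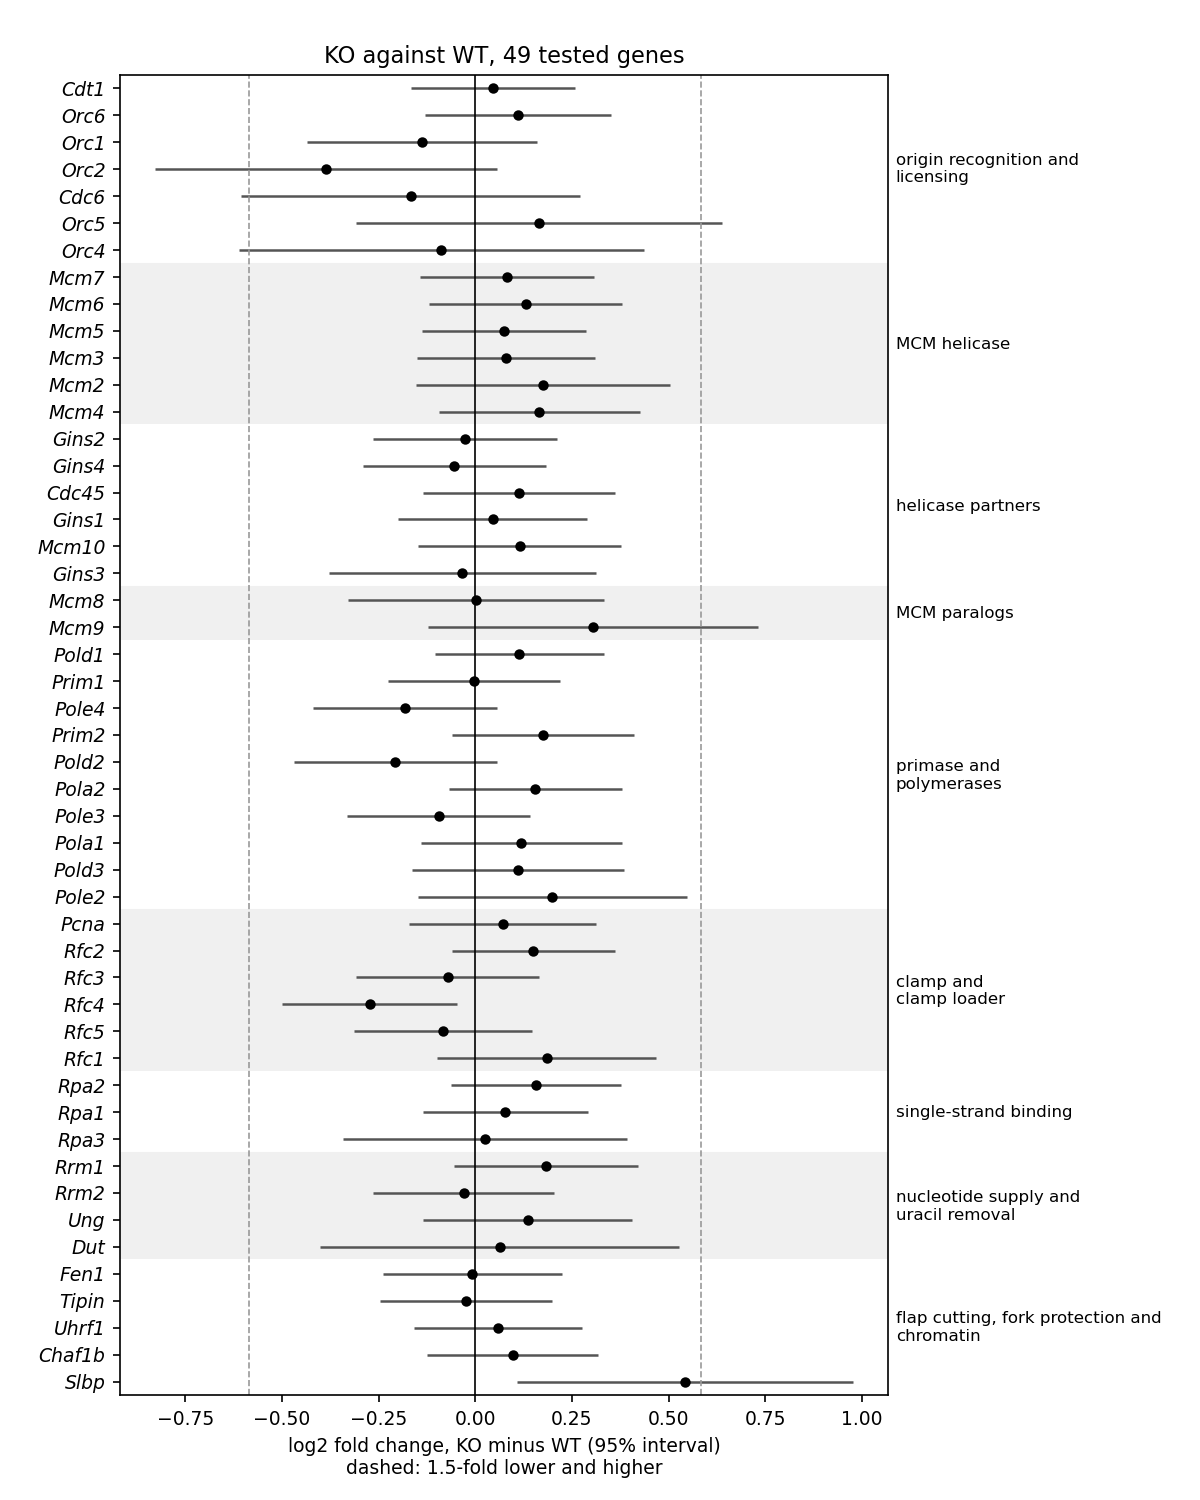
Log2 fold change of each of the 49 tested genes, KO minus WT, with its 95% interval from edgeR's quasi-likelihood fit, grouped by role. Dashed lines mark 1.5-fold, and 43 intervals lie between them, while those of Slbp and Rfc4 do not reach 0.

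Groups that did not overlap were counted on the level in each library. KO libraries lay wholly above WT libraries in 2 of the 49 genes, Mcm9 and Rfc2, and wholly below in 1, Rfc4, where 2.92% and 2.31% of all tested genes did so, or 5.22% in either direction. With 1 library fewer the count of 3 rose to 8 without KO replicate 2 and to 6 without WT replicate 4. It rose to 5 without KO replicate 1 or WT replicate 1, and was 2 with library size alone in place of TMM. Groups of fewer libraries overlap less readily in any gene, and the share over all tested genes was not counted in those fits.

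Genes of origin recognition and licensing lay on both sides of 0, 3 above and 4 below, and none passed the test. Orc2, a subunit of the origin recognition complex, stood at 15.0, 30.7, 24.9 and 31.8 CPM across KO replicates 1 to 4 and at 23.7, 38.7, 28.9 and 40.3 CPM across WT replicates 1 to 4. KO replicate 1 was the lowest library, WT replicates 2 and 4 were the highest, and the groups overlapped. The log2 fold change of Orc2 was -0.39 ± 0.21 (SE, adjusted p = 0.527 by edgeR), and it was -0.19 without KO replicate 1, the lowest library. Orc1, the subunit that carries the main ATPase of the complex, was measured at 31.1, 45.7, 35.9 and 37.3 CPM across the KO libraries and 35.7, 42.7, 39.4 and 45.4 CPM across the WT libraries, with KO replicate 1 again lowest and KO replicate 2 highest of all, a log2 fold change of -0.14 ± 0.14 (SE). Cdt1, which brings MCM to origins, was the most abundant gene of this role, at 242, 208, 222 and 199.6 CPM across the KO libraries and 219, 205, 212 and 209.6 CPM across the WT libraries. Its WT libraries lay inside the range of its KO libraries, and its log2 fold change was 0.046 ± 0.10 (SE). For the others the log2 fold changes were 0.11 for Orc6, 0.16 for Orc5, -0.088 for Orc4 and -0.17 for Cdc6, the loading factor that acts with Cdt1. The last 500 bases of Orc2 and Orc4 overlap exons on the opposite strand (Nif3l1 and Acvr2a in GENCODE M21), as do those of Fen1, Gins2, Mcm7, Rfc4 and Rfc5, and these 7 values are uncertain because the sources used here do not say how strand was handled in counting.

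All 6 subunits of the helicase had log2 fold changes above 0, from 0.074 for Mcm5 to 0.17 for Mcm2, and none passed the test (edgeR adjusted p from 0.659 to 0.837). The 6 stayed above 0 under every other normalization, filter, test and left-out library tried, but these fits share libraries and are not independent. The 6 genes also share the libraries, so their signs are not independent of each other. The median of the 6 was 0.106, and 0.047 without KO replicate 3. Mcm7, the most abundant subunit, stood at 722, 612, 669 and 713 CPM across the KO libraries and 652, 588, 620.3 and 705 CPM across the WT libraries, and the groups overlapped over most of their range. Its 3′ end overlaps exons of Cops6 on the opposite strand, a gene measured at 117 ± 10.3 CPM across the KO libraries and 146 ± 24.3 CPM across the WT libraries (SD, n = 4 each). Mcm4, the subunit with the lowest p, was measured at 138, 134, 195 and 159 CPM across the KO libraries and 119.6, 147, 141 and 152 CPM across the WT libraries. KO replicate 3 was the highest library and WT replicate 1 the lowest, and the log2 fold change of Mcm4 was 0.17 ± 0.12 (SE). Mcm6, whose promoter is shown above, stood at 487, 530, 608 and 468 CPM across the KO libraries and 423, 448, 561 and 479 CPM across the WT libraries, with KO replicate 3 highest, and a log2 fold change of 0.13 ± 0.12 (SE). Mcm3 and Mcm5 had 0.079 ± 0.11 and 0.074 ± 0.10 (SE).

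Relative to its mean, Mcm2 varied most of the helicase subunits between KO libraries, with a coefficient of variation of 28.5%. Its levels were 241, 118, 216 and 175 CPM across the KO libraries and 179, 178, 155 and 155 CPM across the WT libraries, so KO replicates held both the highest and the lowest library of all 8. The SD was 53.5 CPM in KO and 13.6 CPM in WT (n = 4 each), a difference in spread that was not tested. KO replicate 2, with 228 UMIs of Mcm2, was also the shallowest library. The log2 fold change of Mcm2 was 0.17 ± 0.16 (SE, adjusted p = 0.723 by edgeR), and it was 0.34 without KO replicate 2 and 0.032 without KO replicate 1. The subunits kept 1 order of levels, Mcm7 above Mcm6, Mcm5 and Mcm3, in 8 of 8 libraries, and Mcm2 exceeded Mcm4 in 7 of 8, with KO replicate 2 as the exception.

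**Figure D4:**
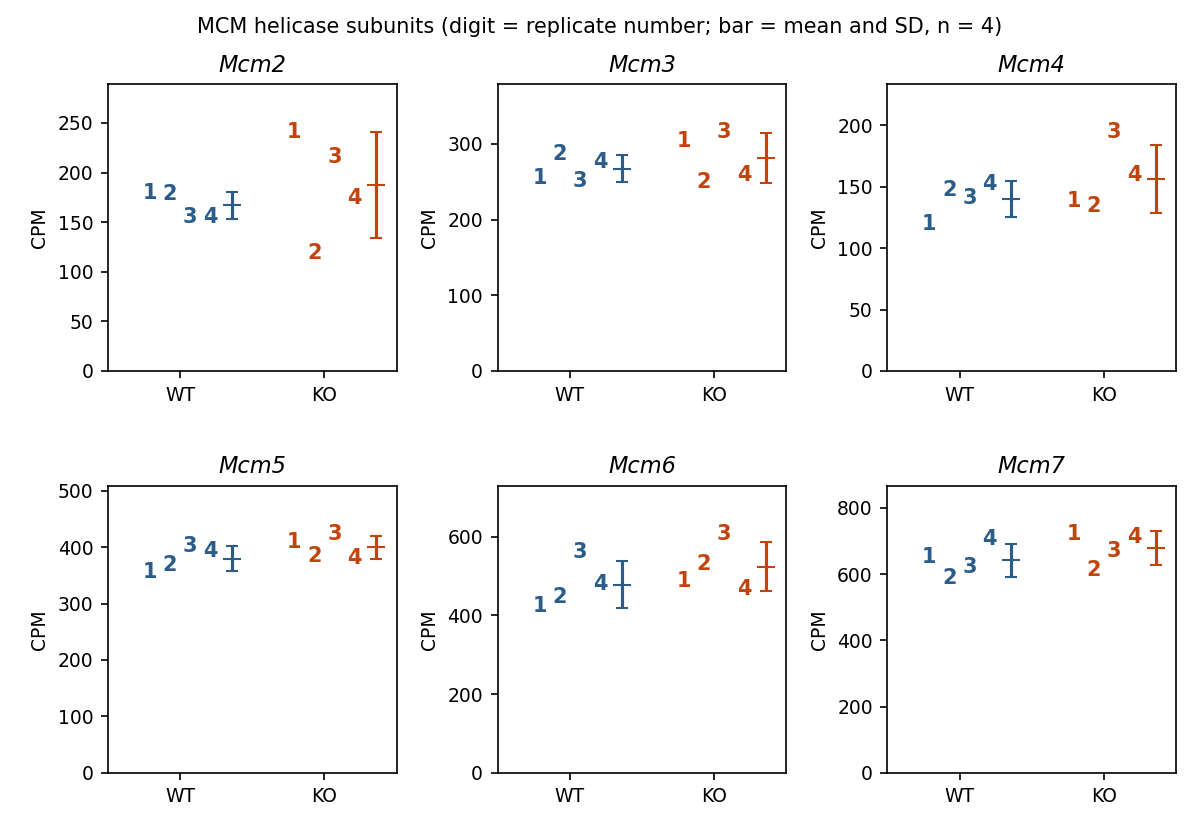
Level of each MCM helicase subunit in CPM, with each library shown by its replicate number, WT in blue and KO in orange, and bars for the mean and SD (n = 4). WT and KO overlap in every panel, and KO replicates 1 and 2 of Mcm2 lie at 241 and 118 CPM.

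None of the factors that join the loaded helicase passed the test. Cdc45 stood at 107, 113, 102 and 92.9 CPM across the KO libraries and 76.1, 96.8, 102 and 108 CPM across the WT libraries, where WT replicate 1 was lowest and the other libraries of both groups overlapped, with a log2 fold change of 0.11 ± 0.12 (SE, adjusted p = 0.770 by edgeR). Mcm10, which helps to activate the helicase, was measured at 50.2, 55.1, 61.5 and 59.9 CPM across the KO libraries and 45.2, 49.8, 53.0 and 60.7 CPM across the WT libraries, also with WT replicate 1 lowest, a log2 fold change of 0.11 ± 0.13 (SE). Gins2 was the most abundant GINS subunit, at 195, 232, 188 and 241 CPM across the KO libraries and 191, 233, 215 and 231 CPM across the WT libraries, with full overlap and a log2 fold change of -0.026 ± 0.11 (SE). Although GINS is a complex with 1 copy of each subunit, its transcripts ranged from 20.6 CPM for Gins3 to 216 CPM for Gins2, with Gins1 and Gins4 at 83.1 and 112 CPM, averaged over the libraries. The log2 fold changes of Gins1, Gins3 and Gins4 were 0.045, -0.033 and -0.054. The MCM paralogs Mcm8 and Mcm9, which act in repair by recombination and not in the main helicase, were far less abundant. Mcm9 lay at 10.5, 11.4, 10.4 and 11.7 CPM across the KO libraries and 8.60, 8.30, 10.2 and 8.26 CPM across the WT libraries, without overlap, though KO replicate 3 and WT replicate 3 were close together. Its log2 fold change was 0.30 ± 0.20 (SE, adjusted p = 0.610 by edgeR), on 20 to 32 UMIs per library. Mcm8 stood at 28.4, 35.3, 26.9 and 30.1 CPM across the KO libraries and 23.7, 28.8, 35.7 and 30.8 CPM across the WT libraries, with WT replicate 3 highest, WT replicate 1 lowest and a log2 fold change of 0.0019 ± 0.16 (SE).

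Primase and polymerase subunits split by sign within the same enzymes. Pold2, an accessory subunit of polymerase delta, had the lowest p of this role, with 112, 90.4, 127 and 131 CPM across the KO libraries and 129.9, 150.2, 111 and 142 CPM across the WT libraries. KO replicate 2 was lowest and WT replicate 2 highest, the groups overlapped, and the log2 fold change was -0.21 ± 0.13 (SE, adjusted p = 0.575 by edgeR). The catalytic subunit Pold1, the most abundant of the role, stood at 237, 190.2, 217 and 220.2 CPM across the KO libraries and 189, 200, 193 and 217 CPM across the WT libraries, where KO replicate 1 was highest and WT replicate 1 lowest. The log2 fold changes were 0.11 ± 0.10 for Pold1 and 0.11 ± 0.13 (SE) for Pold3, an accessory subunit. Of the small subunits of polymerase epsilon, Pole4 stood at 134, 149, 104 and 144 CPM across the KO libraries and 151, 152, 151 and 146 CPM across the WT libraries. Its WT libraries lay close together and KO replicate 3 fell well below them, with a log2 fold change of -0.18 ± 0.11 (SE). Pole3, which pairs with Pole4, had -0.095 ± 0.11 (SE), while Pole2 had 0.20 ± 0.17 (SE), with KO libraries from 27.6 to 53.1 CPM around WT libraries from 34.8 to 37.5 CPM. For polymerase alpha and primase the log2 fold changes were 0.12 for Pola1, 0.16 for Pola2, 0.17 for Prim2 and -0.0037 for Prim1, and 0 of the 10 tested genes of the role were called.

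Subunits of the clamp loader lay on opposite sides of 0. Rfc4, a small subunit of the loader (chromosome 16 from 23113943 to 23127737 in GENCODE M21), stood at 106, 109.6, 99.0 and 116 CPM across the KO libraries and 128, 151, 117 and 124 CPM across the WT libraries, with every KO library below every WT library. Its log2 fold change was -0.27 ± 0.11 (SE, unadjusted p = 0.0208, adjusted p = 0.369 by edgeR), so it did not pass the test. Rfc2, another small subunit (chromosome 5 from 134581366 to 134601805), lay on the higher side, at 218, 207, 213 and 240.2 CPM across the KO libraries and 185, 203, 206 and 197 CPM across the WT libraries. Each KO library of Rfc2 exceeded each WT library by a narrow margin, and the log2 fold change was 0.15 ± 0.10 (SE, adjusted p = 0.608 by edgeR). The ratio of Rfc2 to Rfc4 within a library, which does not depend on the scaling, was 2.05, 1.89, 2.15 and 2.08 in KO and 1.45, 1.34, 1.75 and 1.60 in WT. It was computed after both values had been seen and is given without a test. Its groups could not overlap, because KO lay wholly above WT in Rfc2 and wholly below WT in Rfc4. The 3′ end of Rfc4 overlaps exons of Eif4a2 on the opposite strand, a gene measured at 30.3 ± 6.55 CPM across the KO libraries and 27.3 ± 3.70 CPM across the WT libraries (SD, n = 4 each), and its part in the Rfc4 counts was not tested. Pcna itself was measured at 717, 808, 629 and 689 CPM across the KO libraries and 582, 682, 754 and 687 CPM across the WT libraries. KO replicate 2 was the highest and WT replicate 1 the lowest library, the rest overlapped, and the log2 fold change was 0.071 ± 0.12 (SE). Named pseudogenes of Pcna are annotated, and reads shared with them are uncertain. The remaining loader subunits had log2 fold changes of 0.18 (Rfc1), -0.071 (Rfc3) and -0.084 (Rfc5).

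The 3 subunits of the single-strand binding complex and 3 of 4 tested enzymes of nucleotide supply and uracil removal had log2 fold changes above 0, and none passed the test. Rpa2, the most abundant Rpa transcript, stood at 249, 221, 262 and 241 CPM across the KO libraries and 199, 209, 226 and 239 CPM across the WT libraries, with overlap between KO replicate 2 and WT replicates 3 and 4. Its log2 fold change was 0.16 ± 0.11 (SE, adjusted p = 0.610 by edgeR). Rpa1, the large subunit that contacts DNA, stood at 147, 145, 157 and 142 CPM across the KO libraries and 160, 138, 131 and 132 CPM across the WT libraries, where WT replicate 1 was the highest library, a log2 fold change of 0.077 ± 0.10 (SE). Rpa3 had 0.026 ± 0.18 (SE), and its KO replicate 3 at 91.3 CPM exceeded the other 7 libraries, which lay at 46.0 to 70.7 CPM.

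Rrm1, the large subunit of ribonucleotide reductase, which makes deoxynucleotides, was measured at 309.9, 248, 343 and 317 CPM across the KO libraries and 249.9, 275, 259 and 290 CPM across the WT libraries. Its KO replicates 1, 3 and 4 exceeded every WT library and KO replicate 2 fell below all of them, and the log2 fold change was 0.18 ± 0.11 (SE, adjusted p = 0.581 by edgeR). The small subunit Rrm2 had a log2 fold change of -0.030 ± 0.11 (SE). Ung, which cuts uracil out of DNA, stood at 63.6, 62.9, 65.1 and 54.0 CPM across the KO libraries and 59.4, 47.8, 49.3 and 67.0 CPM across the WT libraries, with WT libraries on both sides of the KO libraries and a log2 fold change of 0.14 ± 0.13 (SE). Dut, which keeps uracil out of DNA by clearing dUTP, had 0.064 ± 0.22 (SE) on 22 to 48 UMIs per library. Tyms, which encodes thymidylate synthase, was near the limit of counting, with 7 to 20 UMIs per library, 3.74, 3.64, 5.50 and 4.60 CPM across the KO libraries and 3.01, 3.16, 6.79 and 2.54 CPM across the WT libraries. KO and WT overlapped in Tyms, no test was made, and a named pseudogene of Tyms is annotated.

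Slbp, which encodes the protein that binds the stem-loop of replication-dependent histone messages, had the lowest p of all these genes. It stood at 26.2, 14.0, 19.1 and 18.4 CPM across the KO libraries and 14.6, 13.4, 15.6 and 10.5 CPM across the WT libraries, on 27 to 70 UMIs per library. KO replicates 1, 3 and 4 exceeded every WT library, while KO replicate 2 lay below WT replicates 1 and 3. The log2 fold change was 0.54 ± 0.21 (SE, 95% interval 0.11 to 0.98, unadjusted p = 0.0169, adjusted p = 0.349 by edgeR). The edgeR adjusted p of Slbp ranged from 0.221 without KO replicate 2 to 0.692 without KO replicate 1 among fits with 1 library left out. Its promoter held no E2F word and 3 CCAAT boxes, shown in capitals in the 250 bases before the start (chr5:33652575-33652824, minus strand, GRCm38.p6).
Slbp: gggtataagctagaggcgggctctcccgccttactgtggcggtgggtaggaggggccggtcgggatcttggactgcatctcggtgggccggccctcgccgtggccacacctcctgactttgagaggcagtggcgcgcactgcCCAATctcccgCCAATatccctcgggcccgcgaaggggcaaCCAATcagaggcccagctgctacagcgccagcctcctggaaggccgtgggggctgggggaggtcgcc
Chaf1b, a subunit of the chromatin assembly factor that deposits histones behind the fork, was measured at 103, 101, 107 and 109.7 CPM across the KO libraries and 83.9, 103, 99.9 and 106 CPM across the WT libraries. WT replicate 1 was the lowest library and the rest overlapped, with a log2 fold change of 0.10 ± 0.11 (SE). Fen1, the nuclease that trims flaps on the lagging strand, stood at 179.7, 132, 153 and 155 CPM across the KO libraries and 145, 156, 151 and 173 CPM across the WT libraries, with KO replicates 1 and 2 as the highest and lowest of all and a log2 fold change of -0.0081 ± 0.11 (SE). Uhrf1, which carries DNA methylation through replication, and Tipin, which stabilises the fork, had 0.059 ± 0.10 and -0.024 ± 0.11 (SE).

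Other genes of the pathway, taken from lists written with earlier results of these data known, gave the same count of 0 called in each list by edgeR, against a background of 0.211% of all tested genes called in either direction. Of 12 loading and firing factors 1 lay at an unadjusted p under 0.05, Dbf4, the activating subunit of the Cdc7 kinase, with a log2 fold change of 0.38 ± 0.17 (SE, adjusted p = 0.429 by edgeR), and Ticrr, which helps to fire origins, had 0.25 ± 0.20 (SE). The list had a median log2 fold change of 0.027. Of 14 elongation and lagging strand factors, Top1, the topoisomerase that relaxes DNA ahead of the fork, had 0.31 ± 0.11 (SE, adjusted p = 0.279 by edgeR). KO lay wholly above WT in Top1, as in 2.92% of all tested genes. Rnaseh2c, a subunit of ribonuclease H2, had -0.33 ± 0.13 (SE, adjusted p = 0.345 by edgeR). At an unadjusted p under 0.05 lay 1 gene of that list above and 3 below 0, where 5.12% and 5.71% of all tested genes did, and its median was -0.073.

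Among 22 tested genes of nucleotide supply the lowest p belonged to Dctpp1, which clears dCTP, at -0.37 ± 0.14 (SE, adjusted p = 0.312 by edgeR), and to Dctd, which encodes dCMP deaminase, at 0.60 ± 0.26 (SE). The median log2 fold change was -0.023 for this list and 0.091 for 11 tested genes of replication-coupled chromatin, where Hat1, a histone acetyltransferase, had -0.27 ± 0.12 (SE) and the maintenance methyltransferase Dnmt1 0.18 ± 0.11 (SE). In 24 genes of the S phase checkpoint and fork repair 12 lay above and 12 below 0. Atr, the kinase that senses stalled forks, had -0.65 ± 0.21 (SE, adjusted p = 0.238 by edgeR) and Bard1, the partner of Brca1, 0.53 ± 0.20 (SE, adjusted p = 0.335 by edgeR).

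Regulators of the passage from G1 to S phase held, in Myc, the largest difference of these lists. Of 34 tested, 6 lay at an unadjusted p under 0.05 and all 6 were above 0, where 5.12% of all tested genes lay on that side. Myc, a transcription factor that drives growth and cell cycle entry, stood at 115, 55.6, 144 and 78.7 CPM across the KO libraries and 55.5, 47.4, 46.9 and 66.7 CPM across the WT libraries. KO replicate 2 fell within the WT range and the other KO libraries lay above it, with a log2 fold change of 0.88 ± 0.21 (SE, adjusted p = 0.0988 by edgeR). Without KO replicate 2 Myc was called, with an edgeR adjusted p of 0.00717, and it was not called in the other settings. Its relative Mycn was measured at 23.6, 17.7, 20.1 and 14.2 CPM across the KO libraries and 13.3, 11.5, 12.2 and 11.1 CPM across the WT libraries, without overlap, a log2 fold change of 0.66 ± 0.19 (SE, adjusted p = 0.204 by edgeR). E2f1, the activator most closely tied to S phase genes, had a log2 fold change of 0.0092 ± 0.11 (SE), Ccne1 and Ccne2, which encode E cyclins, had -0.19 ± 0.19 and -0.024 ± 0.21 (SE), and these 3 genes are named outside the rule. The median of the list was 0.063. KO lay wholly above WT in 2 of the 34 tested genes of the list, as in 2.92% of all tested genes. Beside Mycn this was Tfdp2, a partner of E2F factors, with 0.61 ± 0.22 (SE), and Tfdp2 was singled out after its values were seen. In 31 genes of G2 and M phase the median was 0.15, and 3 lay at an unadjusted p under 0.05, all above 0, where 5.12% of all tested genes lay. With 1 library left out the median spanned 0.090 (without KO replicate 3) to 0.18 (without KO replicate 4). In this list 30 of 31 lay above 0, against 49.5% of all tested genes, and the number was 23 without WT replicate 1 and 25 without KO replicate 3. The genes were measured in the same libraries, so their signs are not independent. Nusap1, which binds spindle microtubules, had a log2 fold change of 0.34 ± 0.14 (SE, adjusted p = 0.361 by edgeR). Aurkb, a kinase of chromosome segregation, had 0.27 ± 0.11 (SE, adjusted p = 0.361 by edgeR) with KO wholly above WT, as in 2.92% of all tested genes.

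Summed levels placed the replication genes beside these lists and beside markers of other cells. The 50 genes summed to 7378, 7010.3, 7539.5 and 7233 CPM across the KO libraries and 6533, 7029, 7076 and 7334 CPM across the WT libraries. WT replicate 1 was the lowest library, KO replicate 3 the highest, and the groups overlapped, and the mean was 7290.4 ± 225 CPM for KO against 6993 ± 335 CPM for WT (SD, n = 4 each). The 31 G2 and M phase genes summed to 5134, 5001, 5845 and 4803 CPM across the KO libraries and 4418, 4865, 4842 and 5167 CPM across the WT libraries, where the same libraries were highest and lowest. WT replicate 1, the lowest in both sums, held the highest sum of 13 thymocyte and T cell markers, 3954 CPM, against 2889 to 2982 CPM in WT replicates 2 to 4 and 3102 to 3697 CPM in the KO replicates. Dntt, at 2179, 2552, 2343 and 2189.8 CPM across the KO libraries and 2118, 1881, 1835 and 1931 CPM across the WT libraries, made up most of that sum. KO lay wholly above WT in Dntt, as in 2.92% of all tested genes. Of the 11 tested markers of the list 7 lay below 0, and their median log2 fold change was -0.26. At an unadjusted p under 0.05 by edgeR lay 4 below 0 and 1 above, where 5.71% and 5.12% of all tested genes did, and 0 were called. KO lay wholly below WT in Ptcra, Cd8b1 and Cd3d, as in 2.31% of all tested genes. Cd3d had the lowest p of the list and a log2 fold change of -0.73 ± 0.15 (SE, adjusted p = 0.0521 by edgeR). Of that list 13 of 16 markers were in the table, and Rag2 and, outside WT replicate 1, Cd4 were near 0. The 9 ILC2 markers summed to 617 to 659 CPM across the KO libraries and 493 to 614 CPM across the WT libraries, with every KO library above every WT library. All 7 tested ILC2 markers lay above 0, where 49.5% of all tested genes did, with a median log2 fold change of 0.22. Their signs come from the same libraries and are not independent. Of the 7, 2 lay at an unadjusted p under 0.05 by edgeR and 0 were called. KO lay wholly above WT in 2 of them, as in 2.92% of all tested genes. The median log2 fold change of the replication genes was 0.053 without WT replicate 1. Markers of NK cells and ILC1 (2 of 7 in the table, nearly all Gzma) summed to 447 to 627 CPM across the KO libraries and 515 to 682 CPM across the WT libraries, and sums of each of the other marker lists stayed at or below 88.0 CPM. The part of these other cells in the levels of replication genes was not tested.

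**Figure D5:**
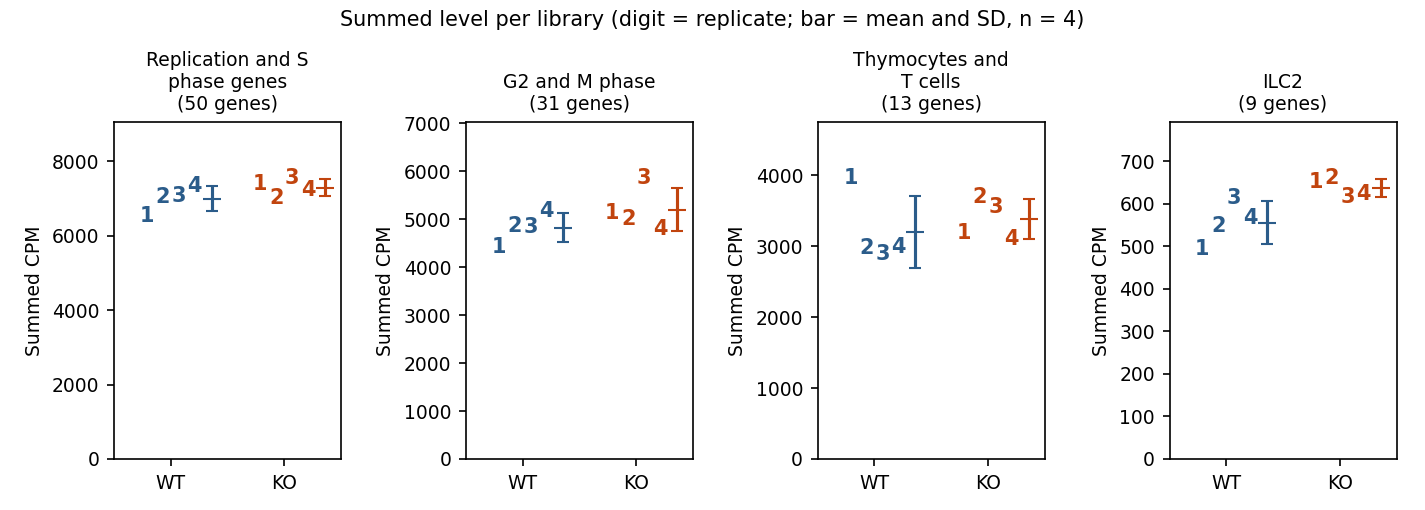
Summed level per library in CPM of the 50 replication and S phase genes, 31 G2 and M phase genes, 13 thymocyte and T cell markers and 9 ILC2 markers, each library shown by its replicate number, with bars for the mean and SD (n = 4). WT replicate 1 is lowest in the replication and the G2 and M phase sums and highest in the thymocyte and T cell sum.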

How the data were processed

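Per the labels' protocols, MARS-seq libraries counted UMI-tagged 3′ ends of poly(A) RNA. STAR 2.5.2b, HTSeq, DESeq2, cutadapt, bcl2fastq and the mm10 build appear in the submitters' processing notes, without their roles. The annotation and the strand handling are not given in the sources used. The deposited raw UMI counts, whole numbers per gene, were the only values tested. The normalized signal in the deposited table equals the count divided by 1 constant per library. The authors' regularized log2 values were not used, and their log2 fold change (sign turned to KO minus WT) and p-values are quoted only where named as theirs.

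Counts of 4 KO and 4 WT libraries went into edgeR 4.0.16 (R 4.3.3). filterByExpr (minimum count 10) kept 9016 of 10913 genes, TMM factors were 0.949 to 1.058, and the quasi-likelihood fit had group as its only term. P-values were adjusted by Benjamini-Hochberg over all 9016 genes at a threshold of 0.05. Standard errors came from the F statistic and 95% intervals from the matching t quantile, with no adjustment for the number of genes. No list was tested as a set. No pair of libraries agreed within sampling noise. By chi-square per degree of freedom between their counts, KO replicate 2 was closest to WT replicate 3 (3.63) and KO replicate 4 to WT replicate 1 (3.92). Pairs of KO libraries had 6.00 to 7.91, and KO replicates 1 and 3 were closest to KO libraries. The cause was not tested.

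Genes, lists and tests were chosen with earlier results of these data known. Library values are given for every replication gene without overlap and, in each role, for the 2 with the lowest p and the most abundant, plus Mcm6 and Tyms. Each pathway list is described by its 2 lowest p. Alternatives were RLE, upper quartile and no factors, no filter and a minimum count of 20, DESeq2 1.42.0, limma-voom 3.58.1, a robust edgeR fit, a replicate block and leaving out each library. Gene positions are from GENCODE M21 (GRCm38, the assembly of mm10).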

Additional observations from a re-analysis of the deposited data

Results flagged for a closer look

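In 98 groups of 4 libraries (49 tested genes in KO and in WT), 4 had 1 library far from the other 3 by Dixon's criterion, which chance meets in about 1 of 20 groups. Tipin in WT replicate 1 stood at 126 CPM below 160.1 to 162 CPM in WT replicates 2 to 4, and the KO libraries lay between them at 139.8 to 155 CPM. Prim2 in KO replicate 3 stood at 161 CPM above 126 to 131 CPM in the other KO libraries. Pola2 in KO replicate 1 lay at 99.2 CPM below 111 to 112 CPM. Dut in KO replicate 4 lay at 13.4 CPM above 11.4 to 11.7 CPM, inside the WT range of 8.89 to 16.3 CPM.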

How the results depend on the processing

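0 of the replication genes were called under any of the 17 alternatives, and the lowest edgeR adjusted p reached was 0.221. The number of all genes called, 19 in the fit as reported, was 45 by DESeq2 and 60 with a replicate block, and with 1 library left out it was 1 (without WT replicate 2) to 39 (without KO replicate 2), with 4 without WT replicate 4. The labels number both groups 1 to 4, but deviations of same-numbered libraries correlated at -0.0055 to 0.139, so the numbers were not taken to pair the samples. Differently numbered libraries correlated at -0.152 to 0.245, highest for KO replicate 2 with WT replicate 3, and the cause was not tested. The replicate block changed no call among the replication genes. The number of replication genes whose groups did not overlap was 3 to 8 with 1 library left out and 2 with library size alone. The matching shares over all tested genes were not counted. The number called in the pathway lists together was 0 to 1, the 1 being Myc without KO replicate 2. The median log2 fold change of the replication genes was 0.050 to 0.089 with 1 library left out. Signs turned for some genes, none of them called. Mcm8 was -0.0019 with RLE factors and -0.0013 with a minimum count of 20. With library size alone Fen1, Prim1, Rrm2 and Tipin were 0.022, 0.026, 0.00080 and 0.0052. Rpa3 was -0.014 with limma-voom and -0.0058 with the replicate block. With 1 library left out the log2 fold changes spanned -0.27 to 0.024 for Cdc6, -0.0073 to 0.085 for Cdt1, -0.052 to 0.30 for Dut, -0.086 to 0.064 for Fen1, -0.015 to 0.10 for Gins1, -0.091 to 0.032 for Gins2, -0.095 to 0.053 for Gins3 and -0.13 to 0.0071 for Gins4. They spanned -0.089 to 0.10 for Mcm8, -0.20 to 0.12 for Orc4, -0.075 to 0.047 for Prim1, -0.13 to 0.0049 for Rfc3, -0.25 to 0.14 for Rpa3, -0.10 to 0.042 for Rrm2 and -0.10 to 0.0081 for Tipin. Orc2, the most negative, spanned -0.51 to -0.19 and did not change sign. The cause of the turns was not tested. Depth limits Tyms most, at 7 to 20 UMIs per library.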

Other observations

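Each of the 49 tested replication genes was set against its own mean over the 8 libraries, on a log2 scale with 1 CPM added. Across KO replicates 1 to 4, 29, 19, 35 and 30 genes lay above that mean. Across WT replicates 1 to 4, 12, 23, 21 and 31 did. The same count was not made over all tested genes. The coefficient of variation of a replication gene between libraries of 1 group had a median of 11.4% in KO and 10.3% in WT, against 15.7% and 14.1% over all tested genes, which are less abundant.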
